A study of Mus musculus with 8 samples.

Results

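The 3 hyaluronan synthase genes *Has1*, *Has2* and *Has3*, the hyaluronidase genes *Hyal1* and *Hyal2*, and *Cd44*, which encodes the main cell-surface receptor of hyaluronan, were taken by symbol from a table of 53465 mouse genes. All 6 genes were found once each, and all 6 passed the filter on low counts that left 14301 genes for testing. *Has2* passed it through its libraries under TGFβ1, as its counts under the TGFβ receptor inhibitor were only 0, 14, 1 and 6. *Has2* was the gene of this group that moved most. It was at or near 0 in every library treated with the TGFβ receptor inhibitor, rose under TGFβ1, and under TGFβ1 was higher still when *Smad4* was on. The call for *Smad4* did not hold with the cell line left out of the model, or without 1 of the TGFβ1 libraries. *Cd44*, *Hyal1* and *Has3* were also called higher under TGFβ1 in Smad4-on cells, by about 2-fold to 3-fold, whereas *Has1* was not called in any comparison of the model used throughout. The *Has3* call was lost in several alternatives. *Hyal2* rose just under 2-fold in both Smad4 states, and *Cd44* less than 2-fold in Smad4-off cells, all past the adjusted p threshold. None of the 6 genes was called in the test of whether the *Smad4* effect differed between treatments.

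Hyaluronan is a long, unbranched sugar polymer of alternating glucuronic acid and N-acetylglucosamine. HAS enzymes sit in the plasma membrane, join the UDP-activated sugars and push the growing chain out of the cell. HYAL2 at the cell surface cuts long chains, HYAL1 in the lysosome degrades the fragments, and CD44 binds hyaluronan and links it to the actin cytoskeleton through ezrin, radixin and moesin. Pancreatic ductal adenocarcinoma (PDAC) is known for a stroma rich in hyaluronan. Transcripts were measured here, not hyaluronan itself.

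The 8 RNA-seq libraries came from 2 PDAC cell lines, B73 and B87, derived from primary pancreatic tumors of KC-shSmad4 mice. These mice carry Ptf1a-Cre, which acts in the pancreatic epithelium, a Rosa26 allele for the reverse tetracycline transactivator rtTA3 with the mKate2 reporter, and in the *Col1a1* locus a GFP-linked shRNA that silences *Smad4* when doxycycline (Dox) is present. Culture with Dox gave Smad4-off cells, and withdrawal of Dox for 5 days gave Smad4-on cells. Each state received 24 h of 100 pM TGFβ1 or 2.5 µM SB505124, which blocks the kinase of the type I TGFβ receptor, giving 4 groups of 2 libraries with 1 library per line in each. All groups thus share the Cre, Rosa26 and hairpin alleles. Smad4 state cannot be told apart from Dox exposure, because no line with a control hairpin was analysed here, and the TGFβ1 effect was measured against an inhibitor and not against untreated cells. Each line and condition was 1 culture. With the line in the model, p-values measure changes against how far the 2 lines disagree in them, with the spread estimated over all 8 libraries. Without the line in the model, they measure changes against the spread between the 2 lines. The samples are bulk cultures, in which fewer cells of a kind and less RNA per cell cannot be told apart.

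Library totals ran from 18389235 to 23440550 counts, and 3 counts corresponded to 0.125 to 0.162 CPM (counts scaled to the TMM-normalized library size). *Smad4*, the target of the hairpin, was at 33.7 to 35.5 CPM in the 4 Smad4-off libraries and at 97.4 to 117 CPM in the 4 Smad4-on libraries. Of the 6 epithelial markers, *Krt8*, *Krt18*, *Krt19* and *Cdh1* were present in every library, *Krt7* was at 474 to 649 CPM in B73 and at 12.6 to 28.7 CPM in B87, and *Epcam* was near 0 (0.153 to 2.11 CPM). Of 9 fibroblast markers, *Dcn*, *Lum* and *Thy1* did not exceed 3 counts in any library, but *Col1a1* reached 627 CPM, *Pdgfrb* 27.2 and *Pdgfra* 6.41 in B87. *Col3a1* reached 41.5 CPM in B87 and 34.0 in B73, and *Col1a2* was at 1.80 to 3.01 CPM in B73 and at most 0.255 in B87. Of 7 immune markers, *Ptprc*, the pan-leukocyte marker, and *Cd3e* did not exceed 3 counts, while *Cd68* was above that floor in all 8 libraries (1.17 to 6.29 CPM). The line was kept in the model as a replicate block.

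In the deposited table (GRCm38), *Has2* lies at chr15:56665627-56694539 on the minus strand. *Has1* lies at chr17:17843328-17855188 (minus strand), *Has3* at chr8:106870242-106884566 (plus strand) and *Cd44* at chr2:102811141-102901665 (minus strand). *Hyal2* at chr9:107567945-107572779 and *Hyal1* at chr9:107576927-107581710 are neighbors on the plus strand. Stretches upstream of the start were taken from RefSeq (GRCm38.p6), which matched 4 of the 6 genes, *Has1*, *Hyal1*, *Hyal2* and *Cd44*. They are shown for *Hyal1* and *Cd44*, the genes of the group with an entry that were called in a comparison, to set the boxes that SMAD proteins are known to bind beside the values. Both read 5′ to 3′ on the strand of the gene and end just before its first exon, and capitals mark a CAGAC box (GTCTG on the printed strand of *Hyal1*) and a GGCGC site.
*Hyal1*, chr9:107576700-107576926, plus strand: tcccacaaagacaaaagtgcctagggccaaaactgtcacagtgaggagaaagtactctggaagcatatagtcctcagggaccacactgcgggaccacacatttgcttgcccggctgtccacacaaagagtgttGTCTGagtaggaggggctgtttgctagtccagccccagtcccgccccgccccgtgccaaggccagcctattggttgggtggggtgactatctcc
*Cd44*, chr2:102901666-102901915, minus strand: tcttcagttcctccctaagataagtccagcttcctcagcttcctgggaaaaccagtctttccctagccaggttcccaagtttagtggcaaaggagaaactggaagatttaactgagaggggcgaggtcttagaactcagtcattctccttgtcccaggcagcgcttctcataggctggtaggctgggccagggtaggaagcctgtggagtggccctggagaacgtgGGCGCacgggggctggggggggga
The letters CAGAC (the SMAD box), GGCGC (a GC-rich SMAD site) and TGANTCA (the AP-1 site, N being any base) were searched on both strands in the 250 bases before each start. Of 32851 such windows in the table, 42.2% held CAGAC, 32% held GGCGC and 6.75% held TGANTCA. *Has1* held CAGAC at 2 places, *Hyal1* at 1 place, *Cd44* held GGCGC at 1 place, and the *Hyal2* window held none of the 3. The *Hyal2* window (chr9:107568913-107569162) lies inside the gene, downstream of its start in the deposited table, so the bases before that start were not searched. These are letter matches that many promoters hold and say nothing of binding.

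*Has2* encodes the synthase that produces most hyaluronan in many mesenchymal and tumor cells. Under SB505124, its counts in Smad4-off cells were 0 in B73 and 14 in B87, and in Smad4-on cells 1 in B73 and 6 in B87. Under TGFβ1, Smad4-off cells had 39 counts in B73 (1.67 CPM) and 840 in B87 (41.8 CPM). Smad4-on cells had 965 counts in B73 (49.3 CPM) and 2973 in B87 (152 CPM). All TGFβ1 libraries were thus above all SB505124 libraries, and both Smad4-on libraries under TGFβ1 were above both Smad4-off libraries, although the Smad4-on library of B73 was only just above the Smad4-off library of B87. Group means under TGFβ1 were 21.8 ± 28.4 CPM (SD, n = 2, *Smad4* off) and 100.4 ± 72.4 CPM (SD, n = 2, *Smad4* on), so the spread between lines was as large as the mean or nearly so.

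**Figure D1:**
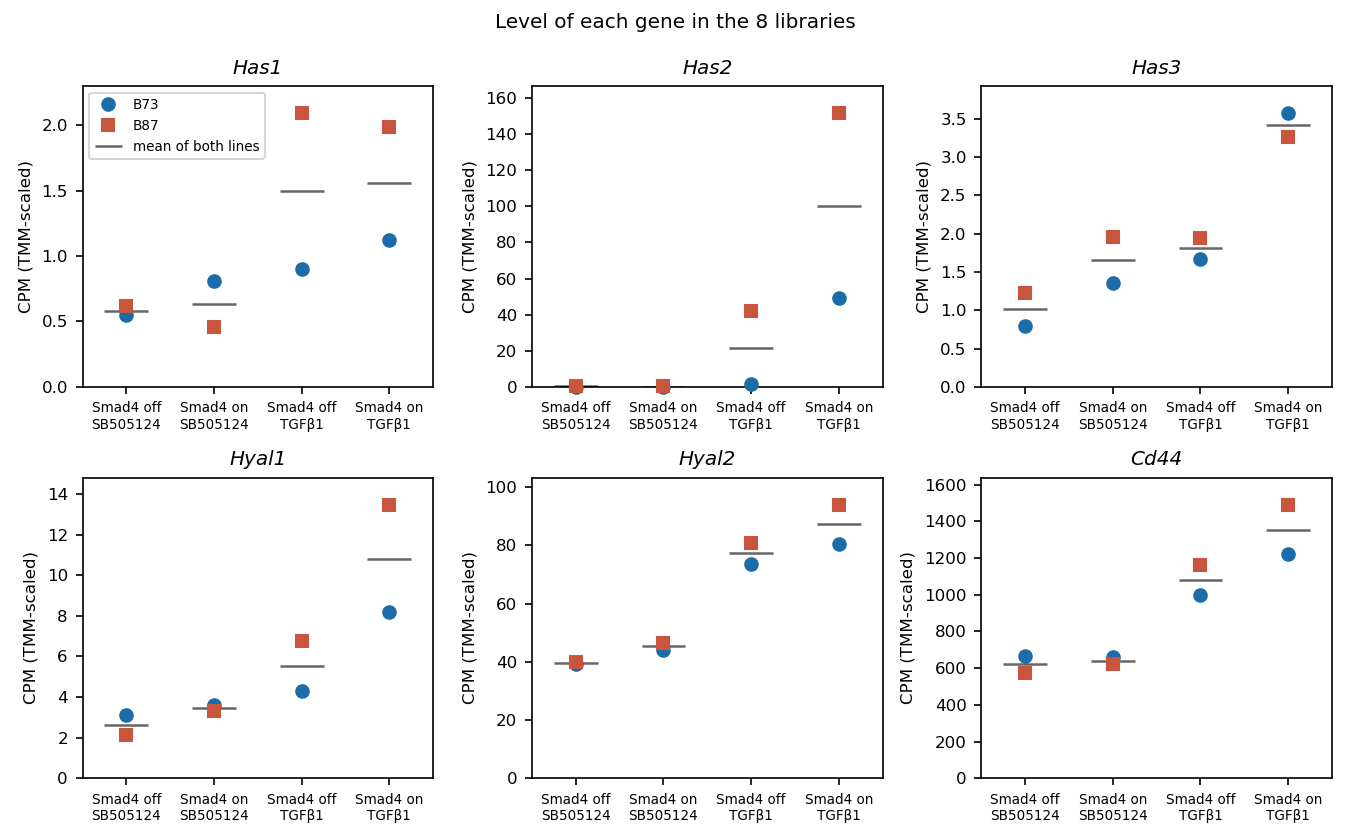
Level of each of the 6 genes in CPM (linear axes from 0, a separate scale per gene) in the 4 groups, with 1 point per library (circles B73, squares B87) and a bar at the mean of both lines. *Has2* is near 0 under SB505124 and reaches 152 CPM in Smad4-on B87 cells under TGFβ1, and every gene has its highest group mean in Smad4-on cells under TGFβ1.

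The comparison of Smad4-on with Smad4-off cells within a treatment asks which transcripts respond to *Smad4* restoration. Under TGFβ1, *Has2* was higher in Smad4-on cells by a log2 fold change of 3.02 ± 0.59 (SE; edgeR quasi-likelihood test, Benjamini-Hochberg adjusted p = 0.032). It was 1 of the 6 genes called higher (adjusted p under 0.05 and more than 2-fold), beside 1.31% of all tested genes. With no replicate block the log2 fold change was 2.21 with an edgeR adjusted p of 0.572, and none of the 6 genes was called (0.112% of all genes called higher), so the call rests on comparing libraries within a line. The ratio of Smad4-on to Smad4-off CPM was 29.5 in B73 (95% exact counting interval 21.4 to 41.7) and 3.62 in B87 (3.35 to 3.92). Direction was thus shared by both lines, and the size was not. Without the Smad4-off TGFβ1 library of B73 the log2 fold change was 1.92 and was no longer called (edgeR adjusted p = 0.0632). Without the Smad4-on TGFβ1 library of B73 it was 1.88, and without the Smad4-off or the Smad4-on library of B87 it was 4.81 or 4.83, all called. These intervals and the floor of 3 counts cover counting error only.

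The difference in the Smad4 effect between the lines was itself called for *Has2*. The log2 effect of *Smad4* was lower in B87 than in B73, at -3.03 ± 0.26 (SE, edgeR adjusted p = 0.0176). This was 1 term fitted to both treatments together, for which 0.392% of all genes were called either way. *Has2* was the only one of the 6 genes called in this test. The call was lost without any 1 of the 4 TGFβ1 libraries (-5.08 to -2.58, edgeR adjusted p between 0.258 and 0.795) and with glmTreat against 2-fold (adjusted p = 0.182). Because the fit is to counts, the SB505124 libraries, in which *Has2* had 0 to 14 counts, carry little weight in this estimate. With 1 culture per line and condition, its SE and p-value do not measure how far repeat cultures of a line would differ. In the difference of the TGFβ1 effect between the lines none of the 6 genes was called, edgeR called 0% of all genes, and DESeq2 with the line called none of the 6 either. At an unadjusted p under 0.05, 2 of the 6 genes passed there, *Cd44* (log2 difference 0.40 ± 0.11, higher in B87, adjusted p = 0.534) and *Hyal1* (1.00 ± 0.28, adjusted p = 0.534).

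**Figure D2:**
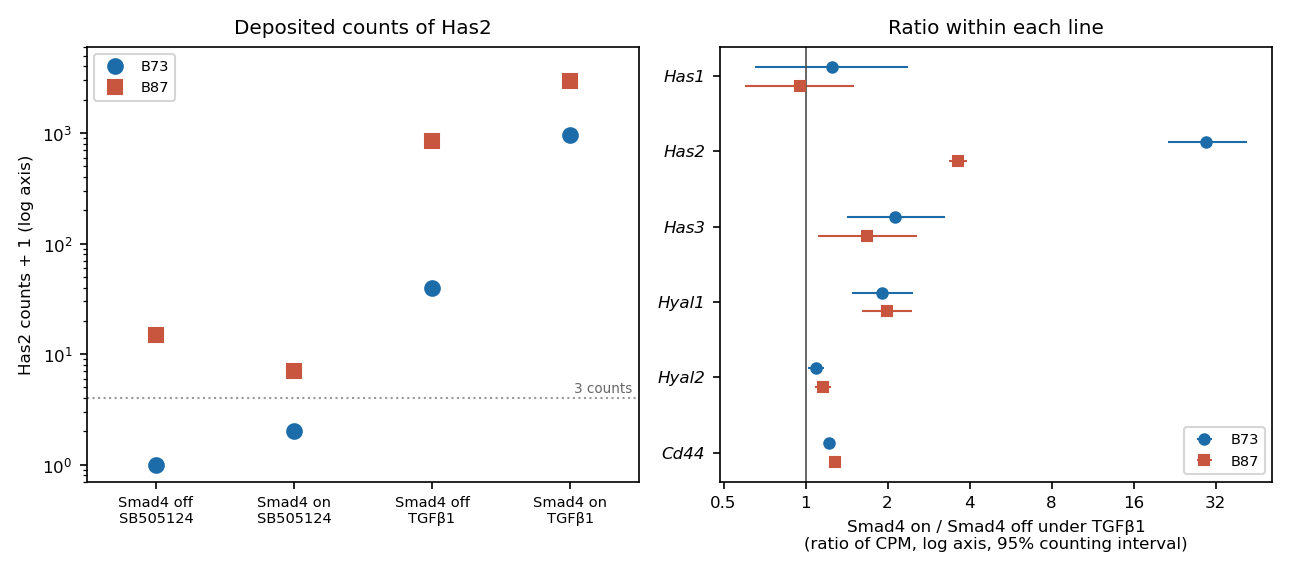
Left, deposited counts of *Has2* plus 1 in the 8 libraries (log axis, circles B73, squares B87), with a dotted line at 3 counts. Right, ratio of Smad4-on to Smad4-off CPM under TGFβ1 for each gene and line (log axis, bars are 95% exact counting intervals), where *Has2* stands at 29.5 in B73 and 3.62 in B87 while the intervals of both lines overlap for *Has1*, *Has3*, *Hyal1* and *Hyal2*.

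TGFβ1 was compared with SB505124 within each Smad4 state to ask which transcripts respond to the pathway with *Smad4* on and with *Smad4* lowered by the hairpin. In Smad4-on cells, the *Has2* log2 fold change was 9.80 ± 1.01 (SE; adjusted p = 0.000701 in edgeR), a value that rests on the 1 and 6 counts of the inhibitor libraries. Within lines the ratio of TGFβ1 to SB505124 was 911 in B73 (95% exact counting interval 163 to 36038) and 607 in B87 (279 to 1656). With *Smad4* off it was 5.77 ± 0.97 (SE; adjusted p = 0.0116 in edgeR). There B73 had 39 against 0 counts, a ratio of 11.2 with 3 counts in place of 0 and a lower 95% exact counting limit of 8.65, and the level was 68.0-fold higher in B87 (interval 40.3 to 125). *Has2* was thus higher under TGFβ1 in both lines also in Smad4-off cells, where *Smad4* was lowered and not absent (33.7 to 35.5 CPM). Whether this rise needs the remaining *Smad4* was not tested. With no replicate block, the adjusted p in edgeR was 0.0394 with *Smad4* on and 0.180 with *Smad4* off, so only the first call held, while DESeq2 with no replicate block gave 0.0356 with *Smad4* off. Without the Smad4-off B87 library under SB505124, the largest *Has2* count of the inhibitor arm, the Smad4-off value was 9.54 and was no longer called (edgeR adjusted p = 0.148), and without the Smad4-off B87 library under TGFβ1 it was 3.54, still called.

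The *Smad4* effect on *Has2* under TGFβ1 was not shown to differ from that under SB505124. Under SB505124 its *Smad4* value was -1.01 ± 1.97 (SE; adjusted p = 0.884 in edgeR). The difference between treatments was 4.02 ± 2.09 (SE; adjusted p = 0.570 in edgeR). In B73, with counts of 0 and 1, an effect of *Smad4* under the inhibitor was not detectable at this depth. In B87, with 14 counts (*Smad4* off) and 6 (*Smad4* on), the ratio of Smad4-on to Smad4-off CPM was 0.406 (95% exact counting interval 0.128 to 1.12). This interval lies below the ratio of 3.62 in B87 under TGFβ1 (3.35 to 3.92). It covers counting error only, with 1 library per state. None of the 6 genes was called in the test of the difference between treatments, by edgeR or by DESeq2 with the line. None passed there at an unadjusted p under 0.05 (0.189% of all genes called either way).

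*Has2os*, a noncoding gene on the opposite strand that shares 4.3% of the exon bases of *Has2*, had few reads. Its counts under SB505124 were 0 and 0 in Smad4-off cells and 1 in B73 and 2 in B87 in Smad4-on cells. Under TGFβ1 they were 1 in B73 and 12 in B87 in Smad4-off cells and 17 and 15 in Smad4-on cells. It was called higher with TGFβ1 in Smad4-on cells (log2 fold change 3.54 ± 1.01, edgeR adjusted p = 0.0425; 0.125 with no replicate block). In every TGFβ1 library its counts were below those of *Has2*, and only 0.91% of the 75-base stretches of *Has2* transcripts were shared with it.

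*Has3*, which encodes a synthase known for shorter hyaluronan chains, was expressed at a low level. Its CPM under SB505124 were 0.799 in B73 and 1.23 in B87 with *Smad4* off, and 1.35 and 1.95 with *Smad4* on. Under TGFβ1 they were 1.67 and 1.94 with *Smad4* off, and 3.57 and 3.26 with *Smad4* on. Both Smad4-on libraries under TGFβ1 were above the 6 others. In Smad4-on cells TGFβ1 raised *Has3* by 1.06 ± 0.28 on the log2 scale (adjusted p = 0.0275 in edgeR), just past the 2-fold limit. The call was lost with no replicate block (adjusted p = 0.088), in DESeq2 with the line (0.0883), and without either SB505124 library of Smad4-on cells, either TGFβ1 library of Smad4-off cells or the B73 TGFβ1 library of Smad4-on cells (log2 values from 0.79 to 1.25). In Smad4-off cells the TGFβ1 value was 0.83 ± 0.31 (edgeR adjusted p = 0.128). The *Smad4* value was 0.93 ± 0.28 under TGFβ1 (edgeR adjusted p = 0.102) and 0.70 ± 0.31 under SB505124 (adjusted p = 0.413), with the same sign in both lines. *Has3* shares 5.52% of its exon bases with *Chtf8* on the opposite strand, which was at 115 to 137 CPM and was not called in any of these comparisons.

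*Has1*, the third synthase gene, was low throughout. Under SB505124 it was at 0.549 CPM in B73 and 0.615 in B87 with *Smad4* off, and at 0.811 and 0.458 with *Smad4* on. Under TGFβ1 it was at 0.900 and 2.09 CPM with *Smad4* off, and at 1.12 and 1.99 with *Smad4* on. All TGFβ1 libraries were above all SB505124 libraries, by little in B73, and the Smad4 states overlapped. The TGFβ1 value was 1.28 ± 0.50 in Smad4-on cells (edgeR adjusted p = 0.0949; called at 2.11 without the SB505124 library of B73) and 1.30 ± 0.50 in Smad4-off cells (adjusted p = 0.143). For *Smad4* it was 0.08 ± 0.45 under TGFβ1 (edgeR adjusted p = 0.932) and 0.11 ± 0.56 under SB505124 (adjusted p = 0.959), and its sign differed between the lines under both treatments. With no filter on low counts the TGFβ1 value with *Smad4* on was 1.28 and was called (edgeR adjusted p = 0.0405). Its counts were 11 to 42 per library.

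The share of *Has2* among the synthases was larger under TGFβ1. Per kilobase of exon, *Has2* was the highest of the 3 synthases in all 4 TGFβ1 libraries and in none of the 4 SB505124 libraries. With the length of the deposited table, which is shorter for *Has1*, *Has2* was the highest in 3 of the 4 TGFβ1 libraries, and *Has1* in Smad4-off B73 cells (39.6%, beside 36.3% for *Has2*). Under SB505124, *Has3* was the highest in 4 of 4 libraries by exon length, in 2 by the longest transcript and in 1 by the deposited length, and *Has1* in the others, so the order of *Has1* and *Has3* is not settled. By exon length, the share of *Has2* in the summed synthase level per kilobase was 0%, 30.6%, 3.16% and 12.6% in the SB505124 libraries (Smad4 off B73 and B87, Smad4 on B73 and B87). In TGFβ1 libraries it was 46.1% in Smad4-off B73, 92.8% in Smad4-off B87, 93.5% in Smad4-on B73 and 97.4% in Smad4-on B87. Smad4-off B73 cells were thus, with each of these lengths, the TGFβ1 library in which *Has1* and *Has3* together still made up the larger part. As a share of reads, *Has2* took 39.4% of the 99 synthase counts there (95% Wilson interval 30.3 to 49.2) and 96.7% of 3076 counts in Smad4-on B87 cells (96.0 to 97.2). Under SB505124 the shares rest on 27, 56, 41 and 64 synthase counts (same order as above). In Smad4-off B87 cells there, *Has2* took 25% of the counts (95% Wilson interval 15.5 to 37.7). This interval overlaps that of Smad4-off B73 cells under TGFβ1. The summed synthase level was 0.247 to 0.474 CPM per kilobase under SB505124 and 0.856 to 36.7 under TGFβ1.

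**Figure D3:**
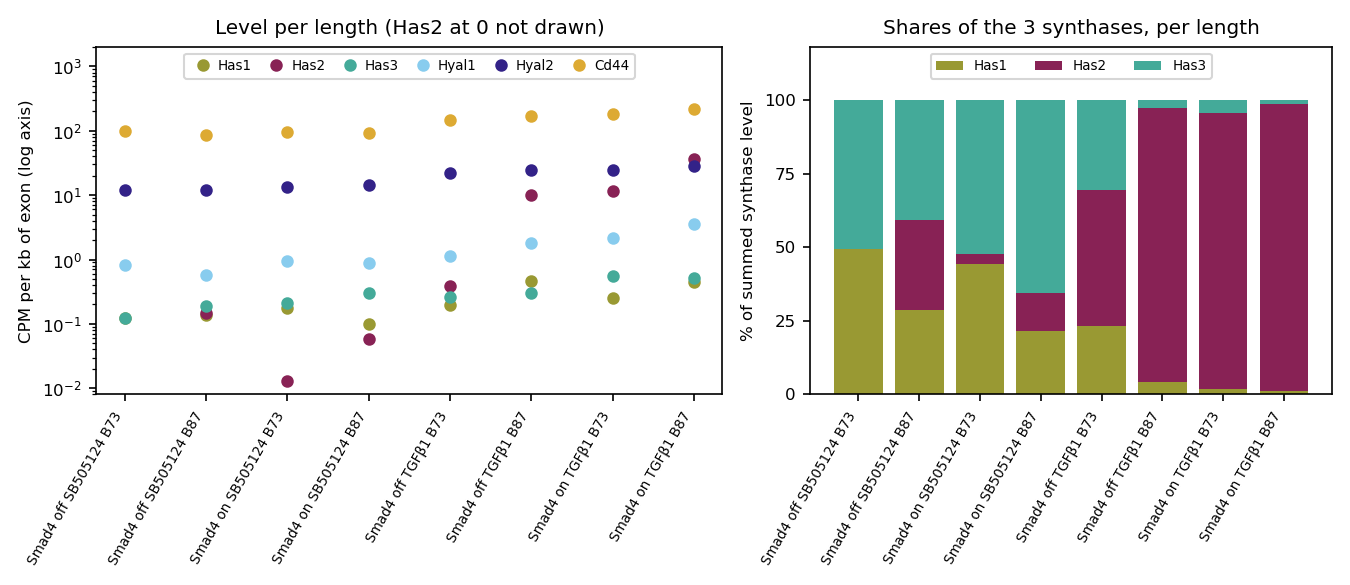
Left, level of each gene in CPM per kilobase of exon in the 8 libraries (log axis; the 0 of *Has2* in Smad4-off B73 under SB505124 is not drawn). Right, share of each synthase in the summed level of all 3, in percent, where *Has2* makes up 46.1% to 97.4% under TGFβ1 and at most 30.6% under SB505124 (36.3% to 96.1% and at most 23.0% with the deposited lengths).

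*Hyal2* encodes the hyaluronidase of the cell surface. Its CPM under SB505124 were 39.2 in B73 and 40.1 in B87 with *Smad4* off, and 44.1 and 46.5 with *Smad4* on. Under TGFβ1 they were 73.5 and 80.8 with *Smad4* off, and 80.4 and 93.9 with *Smad4* on. All TGFβ1 libraries lay above all SB505124 libraries, with the lines close together. The log2 fold change of *Hyal2* with TGFβ1 was 0.94 ± 0.09 in Smad4-on cells (edgeR adjusted p = 0.000454) and 0.96 ± 0.09 in Smad4-off cells (adjusted p = 0.00149). Both were past the p threshold with and without the replicate block and just under 2-fold, so *Hyal2* was not called. The *Smad4* value was 0.17 ± 0.09 under TGFβ1 (edgeR adjusted p = 0.273) and 0.19 ± 0.09 under SB505124 (adjusted p = 0.431), positive in both lines under both treatments.

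*Hyal1*, the lysosomal hyaluronidase, was at 3.09 CPM in B73 and 2.15 in B87 in Smad4-off cells under SB505124, and at 3.62 and 3.33 in Smad4-on cells. Under TGFβ1 the levels were 4.29 and 6.77 CPM with *Smad4* off, and 8.17 and 13.5 with *Smad4* on. Both Smad4-on libraries under TGFβ1 were above the 6 others, and the lines stood further apart under TGFβ1 than under the inhibitor. With *Smad4* on, TGFβ1 raised *Hyal1* by 1.62 ± 0.33 on the log2 scale (SE; adjusted p = 0.0102 in edgeR), also with no replicate block (adjusted p = 0.0367). The ratio was 2.26 in B73 (95% exact counting interval 1.69 to 3.05) and 4.04 in B87 (3.14 to 5.26), and the call was lost without the SB505124 or the TGFβ1 library of B87 (1.37 and 1.25, edgeR adjusted p = 0.0864 and 0.0704). In Smad4-off cells the TGFβ1 value was 1.04 ± 0.34 (edgeR adjusted p = 0.0922). The *Smad4* value was 0.97 ± 0.31 under TGFβ1 (edgeR adjusted p = 0.125) and 0.40 ± 0.35 under SB505124 (adjusted p = 0.706).

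*Hyal1* is the least certain of the 6 counts. It shares 50.8% of its exon bases with *Naa80* (*Nat6* in the table), an N-acetyltransferase gene on the same strand, and 49.0% of its 75-base stretches also occur in transcripts of *Naa80* or *Hyal3*. *Nat6* itself was at 8.84 and 7.69 CPM (Smad4 off) and 8.59 and 7.94 CPM (Smad4 on) under SB505124, and at 9.34 and 13.2 (off) and 14.0 and 18.3 (on) under TGFβ1. Its TGFβ1 value in Smad4-on cells was 0.96 ± 0.21 (edgeR adjusted p = 0.014), smaller than that of *Hyal1* and under 2-fold. The part that shared reads have in the *Hyal1* values was not tested. *Hyal3* had 1 to 9 counts per library and did not pass the filter, and the neighbors *Tusc2* (12.2 to 21.7 CPM) and *Ifrd2* (52.6 to 90.5 CPM) were not called in any of the 4 comparisons.

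*Cd44* was abundant throughout. Under SB505124 it was at 667 CPM in B73 and 575 in B87 with *Smad4* off, and at 660 and 623 with *Smad4* on. Under TGFβ1 it was at 996 and 1161 CPM with *Smad4* off, and at 1220 and 1490 with *Smad4* on. The 2 treatments did not overlap, and under TGFβ1 the 2 Smad4 states did not overlap either. With *Smad4* on, *Cd44* rose under TGFβ1 by 1.08 ± 0.14 on the log2 scale (adjusted p = 0.00162 in edgeR, and 0.0091 with no replicate block), with ratios of 1.85 in B73 and 2.39 in B87, so the 2-fold limit was passed by the fit and by 1 of 2 lines. Without the SB505124 or the TGFβ1 library of B87 the value was 0.98 or 0.91, under 2-fold. With *Smad4* off the value was 0.79 ± 0.14 (edgeR adjusted p = 0.0125), past the p threshold and under 2-fold, with ratios of 1.49 and 2.02. With no replicate block that adjusted p was 0.0584. The *Smad4* value under TGFβ1 was 0.33 ± 0.14 (edgeR adjusted p = 0.202), with ratios of 1.22 and 1.28, and 0.05 ± 0.14 under SB505124 (adjusted p = 0.926). The counts are per gene and do not separate the splice variants of *Cd44*.

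**Figure D4:**
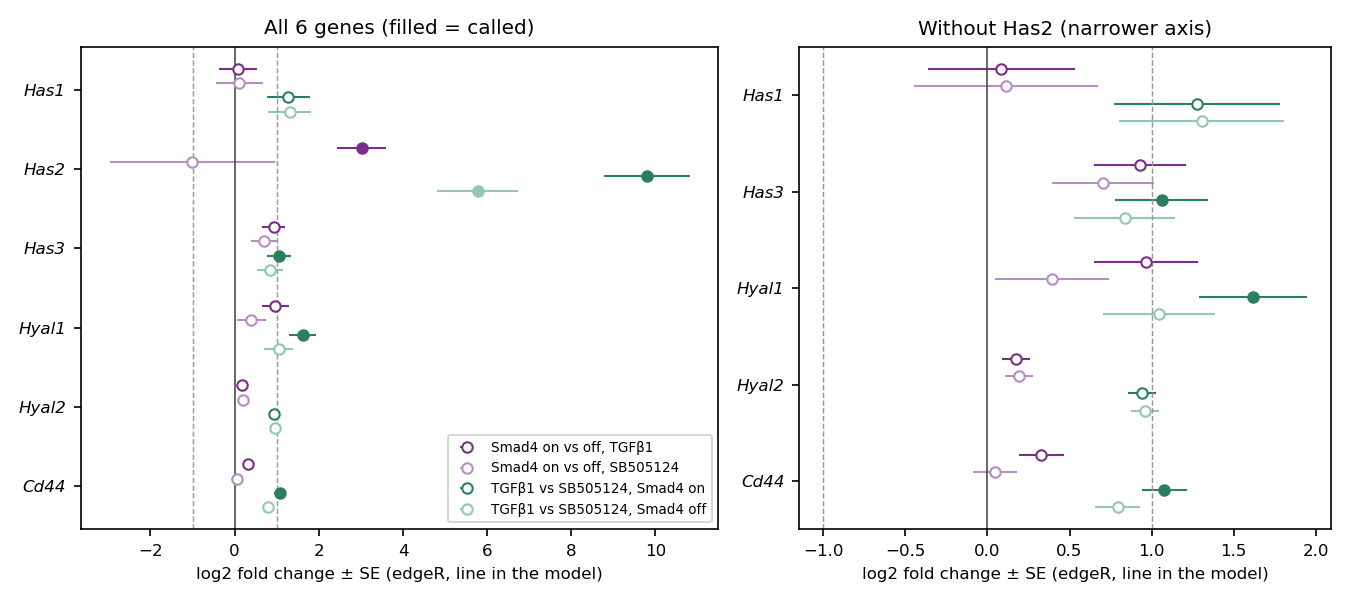
Log2 fold change ± SE of each gene in the 4 comparisons (edgeR with the line in the model; dashed lines at 2-fold, filled points are called). The right panel repeats the 5 genes other than *Has2* on a narrower axis: the TGFβ1 values lie between 0.79 and 1.62, and the *Smad4* values between 0.05 and 0.97.

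Over the 6 genes, 4 were called higher with TGFβ1 in Smad4-on cells (*Has2*, *Hyal1*, *Cd44* and *Has3*) beside 5.62% of all tested genes, and 3 with no replicate block (3.13%). At the adjusted p alone 5 passed, with *Hyal2* added, beside 15.6% of all genes. In Smad4-off cells 1 was called higher (*Has2*) beside 3.11%, and none with no replicate block (0.846%); at the adjusted p alone 3 passed, *Has2*, *Hyal2* and *Cd44*, beside 6.96%. For *Smad4* under SB505124 none was called by edgeR or DESeq2, none passed at an unadjusted p under 0.05, and 0.636% of all genes were called higher (0.00699% with no replicate block). No gene of the group was called lower in these 4 comparisons. Cell type markers were called in the same comparisons. Of the 5 tested fibroblast markers only *Col1a1*, whose locus holds the hairpin allele, was called. It was higher in all 4 (log2 fold changes from 1.78 to 2.73) and alone reached 627 CPM in B87. For *Smad4* under TGFβ1 the other values, not called, were 0.87 (*Col1a2*), -0.27 (*Pdgfra*), -0.91 (*Pdgfrb*) and -2.11 (*Col3a1*). The endothelial marker *Cdh5* was higher with TGFβ1 in both Smad4 states (3.79 with *Smad4* on, 4.08 with *Smad4* off). *Kdr*, also endothelial, was higher with TGFβ1 in Smad4-off cells (2.02) and lower with *Smad4* under TGFβ1 (-3.35). Of the 6 epithelial markers, *Cdh1* (-2.31) and *Krt19* (-2.33) were lower with TGFβ1 in Smad4-on cells and *Krt19* (-1.46) in Smad4-off cells. The fibroblast list summed to 15.8 to 51.7 CPM (Smad4 off) and 5.84 to 161 CPM (Smad4 on) under SB505124, and to 40.5 to 226 CPM and 10.6 to 668 CPM under TGFβ1, and the endothelial list did not exceed 26.1 CPM in any library. The part of these markers in the values of the 6 genes was not tested. The median log2 fold change of the 6 genes was 1.18 for TGFβ1 with *Smad4* on and 1.00 with *Smad4* off, beside -0.02 over all genes in both, and 0.63 for *Smad4* under TGFβ1 and 0.15 under SB505124, beside -0.01 and 0.00. The TGFβ1 comparison in Smad4-on cells and the *Smad4* comparison under TGFβ1 share the Smad4-on TGFβ1 libraries.

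Between the lines, *Has2* was higher in B87 than in B73 by 2.79 ± 0.57 on the log2 scale over all conditions (adjusted p = 0.0166 in edgeR) and was the only one of the 6 called, beside 3.87% of all genes called higher and 4.50% lower in B87. It was higher in B87 in 4 of 4 conditions. The other 5 genes had line differences between 0.05 and 0.48 on the log2 scale, none of which passed at an unadjusted p under 0.05. Markers of cell types differed between the lines as well. Of 6 epithelial markers 4 were lower in B87 (*Cdh1*, *Krt7*, *Krt8* and *Krt18*), and their list summed to 1170 to 2073 CPM in B87 and 3870 to 6183 CPM in B73. Of the fibroblast markers, 3 were higher in B87 (*Col1a1*, *Pdgfra* and *Pdgfrb*) and 1 lower (*Col1a2*), with list sums of 51.7 to 668 CPM in B87 and 5.84 to 40.5 CPM in B73, while *Dcn*, *Lum* and *Thy1* stayed at or under 3 counts. *Col1a1* is also the locus of the hairpin allele. The part that these differences have in the *Has2* values was not tested, and line, mouse and culture cannot be told apart.

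Per kilobase of exon, *Cd44* was the highest of the group in all 8 libraries (84.8 to 220 CPM per kilobase), between 6.51 and 8.26 times the level of *Hyal2* (11.9 to 28.5). *Hyal2* was 8.0 to 21.3 times the level of *Hyal1* (0.570 to 3.56), and *Hyal1* was above *Has3* (0.125 to 0.560) in all 8. The order of *Has3* and *Has1* (0.101 to 0.463) was close, with *Has3* higher in 7 of 8 libraries, and turned with the length given in the deposited table, which raised the level of *Has1* to a mean of 0.51 CPM per kilobase. *Has2* (0 to 35.8) had no fixed place: it was below *Hyal1* in 5 of 8 libraries, above it in 3, and above *Hyal2* only in Smad4-on B87 cells under TGFβ1.

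By the Pearson correlation of log2 CPM over the 8 libraries, the genes closest to *Has2* were *Gm26705* (r = 0.991), *Hmgxb3* (0.990) and *Dcaf12* (0.989). For *Cd44* they were *Thbs1* (0.996), *Sfxn3* (0.995) and *Mmp14* (0.991), and for *Hyal2* *Cfap43* (0.996), *Tpm1* (0.996) and *Mmp14* (0.994). *Hyal1* was closest to *Sec23a* (0.989), *Fndc3b* (0.987) and *Mus81* (0.986), *Has3* to *Ddx47* (0.984), *AC123738.1* (0.984) and *Klhl21* (0.983), and *Has1* to *Il6* (0.977), *Tmem59* (0.977) and *Gm45221* (0.972). These correlations describe 8 libraries that share treatment and line, and they were picked as the highest of all tested genes.

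Of 52 other genes in 5 lists around hyaluronan, 33 passed the filter. *Smad4* under TGFβ1 raised 2 of them and lowered none, beside 1.31% and 1.80% of all genes, and under SB505124 none was called by edgeR or DESeq2 (0.636% higher and 0.455% lower among all genes). TGFβ1 raised 6 and lowered 5 in Smad4-on cells, beside 5.62% and 8.31%, and raised 3 and lowered 3 in Smad4-off cells, beside 3.11% and 2.82%. The median log2 fold change of the 33 genes for TGFβ1 was -0.16 with *Smad4* on and -0.19 with *Smad4* off. With no replicate block the numbers called fell to 0 for *Smad4* under TGFβ1, and to 6 and 2 for TGFβ1.

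Among the 10 genes of UDP-sugar supply, *Gfpt2*, which encodes an isoform of the first and rate-limiting enzyme on the way to UDP-N-acetylglucosamine, rose with TGFβ1 in Smad4-on cells by 5.41 ± 1.04 on the log2 scale (adjusted p = 0.00839 in edgeR, and 0.151 with no replicate block). Without the SB505124 library of B87 the value was 10.21 (edgeR adjusted p = 0.0456), without the TGFβ1 library of B87 8.37 and without that of B73 4.14, all called. Its counts under SB505124 were 1 in B73 and 9 in B87 with *Smad4* off, and 0 and 22 with *Smad4* on, and under TGFβ1 5 and 130 with *Smad4* off, and 212 and 302 with *Smad4* on. As for *Has2*, the low library under TGFβ1 was Smad4-off B73. The *Smad4* value of *Gfpt2* under TGFβ1 was 2.83 ± 0.86 (edgeR adjusted p = 0.106). *Uap1l1*, a relative of the UDP-N-acetylglucosamine pyrophosphorylase gene, had log2 fold changes with TGFβ1 of -1.90 with *Smad4* on (adjusted p = 0.000109 in edgeR) and -1.03 with *Smad4* off (0.00233, and 0.143 with no replicate block). *Slc35d1*, a transporter of UDP-sugars into the endoplasmic reticulum, had values of -1.21 and -1.02 (edgeR adjusted p = 0.000548 and 0.00298). The Smad4-off calls of both genes, just past 2-fold, were lost without the B73 SB505124 or the B87 TGFβ1 library of Smad4-off cells (values from -0.99 to -0.88). The other 7 genes of this list were not called.

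Of the 5 tested genes of hyaluronan breakdown, *Cemip*, which encodes a hyaluronan-binding protein needed for hyaluronan depolymerization in fibroblasts, had a log2 fold change of -1.46 with TGFβ1 in Smad4-on cells (adjusted p = 0.0102 in edgeR), a call lost without the SB505124 or the TGFβ1 library of B73 (-1.34 and -0.99). Its levels there were 8.21 CPM in B73 and 5.66 in B87 under SB505124, and 2.14 and 2.75 under TGFβ1. In Smad4-off cells they were 3.69 and 2.28 CPM under SB505124 and 3.94 and 2.59 under TGFβ1, where the value was 0.14 ± 0.30 (edgeR adjusted p = 0.809). Of the 5 tested surface receptors, *Stab1*, a scavenger receptor for hyaluronan, was called higher with TGFβ1 in both Smad4 states (log2 fold changes 1.61 ± 0.49 and 1.41 ± 0.36, edgeR adjusted p = 0.044 and 0.0465), from 4 to 12 counts per library to 11 to 37. With no replicate block its adjusted p was 0.053 and 0.127, and neither call held in DESeq2 or when any 1 library was left out (adjusted p between 0.055 and 0.350).

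The hyaluronan-binding matrix proteins moved in both directions. *Tnfaip6*, whose product TSG-6 transfers heavy chains onto hyaluronan, rose with *Smad4* under TGFβ1 (log2 fold change 2.17 ± 0.49, edgeR adjusted p = 0.0467) and with TGFβ1 in Smad4-on cells (3.02 ± 0.53, adjusted p = 0.00586). Its counts under TGFβ1 were 5 in B73 and 23 in B87 with *Smad4* off, and 36 and 70 with *Smad4* on. *Acan*, the large aggregating proteoglycan aggrecan, rose with *Smad4* under TGFβ1 (3.39 ± 0.56, edgeR adjusted p = 0.0181), from 5 and 2 counts to 53 and 15. *Vcan*, the related proteoglycan versican, rose with TGFβ1 in both Smad4 states (1.75 ± 0.32 and 1.73 ± 0.33, edgeR adjusted p = 0.00678 and 0.0178). *Itih2*, which encodes a heavy chain of the inter-alpha-trypsin inhibitor, fell, with values of -3.30 and -2.54 (edgeR adjusted p = 0.00315 and 0.0164). None of these calls of *Tnfaip6*, *Acan*, *Vcan* and *Itih2* held with no replicate block (adjusted p between 0.114 and 0.580). The *Acan* call was lost without any of the 4 TGFβ1 libraries (2.96 to 3.56), the *Tnfaip6* call for *Smad4* without any of these or either SB505124 library of Smad4-off cells (1.69 to 2.93), the *Vcan* calls without the B87 SB505124 library (1.25 with *Smad4* on, 1.46 with *Smad4* off) or either Smad4-off TGFβ1 library (1.52 to 1.91), and the Smad4-off *Itih2* call without either Smad4-off TGFβ1 library (-2.57 and -2.53).

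Around *Cd44* itself, 8 of 9 genes of splicing, shedding and cytoskeletal linkage were tested. *Msn*, which encodes moesin, rose with TGFβ1, by 1.72 ± 0.10 with *Smad4* on and 1.54 ± 0.10 with *Smad4* off in log2 units (adjusted p = 0.000114 and 0.000647 by edgeR), from 1097 to 1286 CPM under SB505124 to 3121 to 4115 CPM under TGFβ1. *Mmp14*, a membrane metalloproteinase that can shed CD44, rose by 1.11 ± 0.11 in Smad4-on cells (edgeR adjusted p = 0.000568; 0.97 without the TGFβ1 library of B87) and stood at 0.96 ± 0.11 in Smad4-off cells (adjusted p = 0.00288), just under 2-fold. *Ezr*, which encodes ezrin, fell in Smad4-on cells, at -1.06 ± 0.19 (edgeR adjusted p = 0.00558; -0.68 without the SB505124 library of B73), and was at -0.38 ± 0.18 in Smad4-off cells (adjusted p = 0.231). Moesin and ezrin transcripts thus moved in opposite directions in Smad4-on cells, and the *Msn* calls, the *Mmp14* call and the *Ezr* call held with no replicate block (adjusted p between 0.00145 and 0.0213).

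**Figure D5:**
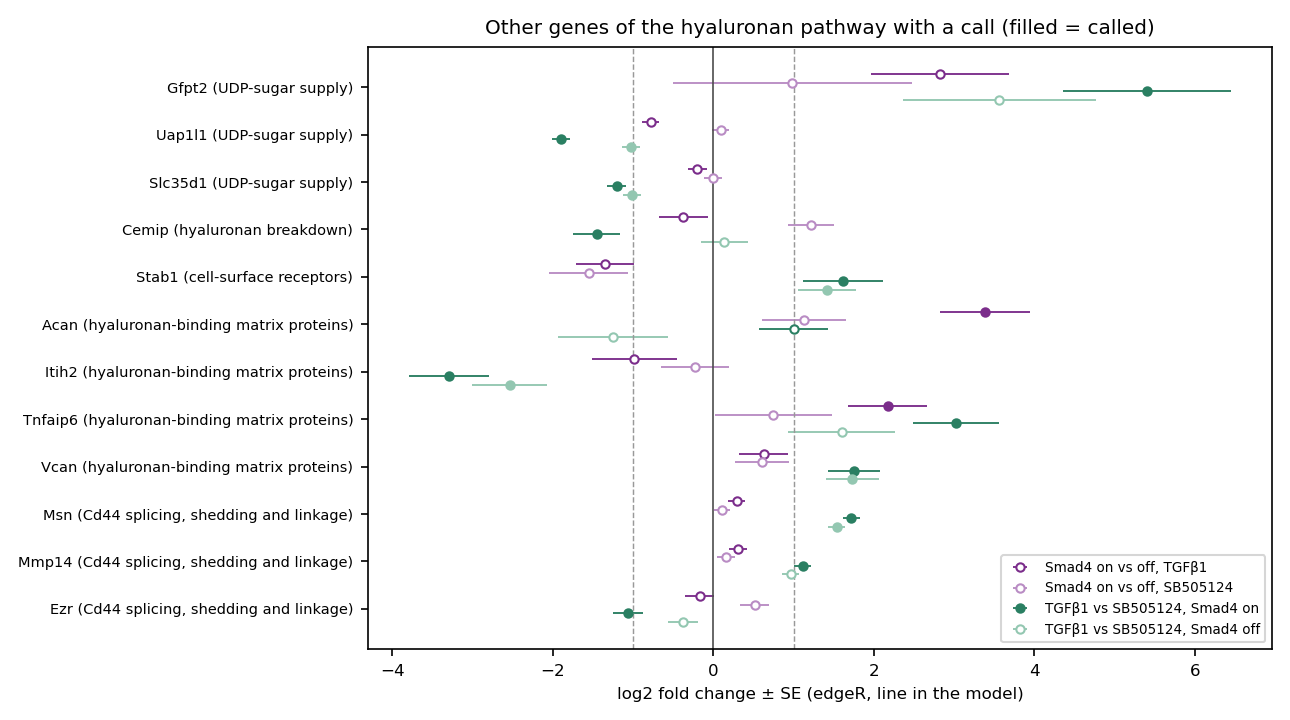
Log2 fold change ± SE of the 12 other hyaluronan-related genes with a call, grouped by list, in the 4 comparisons (edgeR with the line in the model; dashed lines at 2-fold, filled points are called). *Gfpt2* rises most, to 5.41 in Smad4-on cells under TGFβ1, and *Itih2* falls most, to -3.30.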

How the data were processed

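The deposited table holds raw counts per gene, made by the authors from stranded poly(A) libraries (single-end reads of 75 bp) with Trimmomatic 0.36, STAR 2.5.3a and featureCounts 1.6.3 on GRCm38; the settings for strand and for reads shared by genes are not given in the sources used here, so counts of overlapping genes are less certain. Groups came from the sample labels. Differential expression was tested with edgeR 4.0.16 (R 4.3.3), TMM, filterByExpr and the quasi-likelihood F-test in 1 model of 4 groups plus line, with Benjamini-Hochberg adjustment over 14301 genes; a call needed an adjusted p under 0.05 and more than 2-fold. The replicate block is the line, which the sample titles pair across groups (r between 0.642 and 0.774). The SE was taken from the F statistic and the estimate. Fits were also run on counts simulated from the fitted model, with planted changes of the same size in both lines. This does not show how calls behave where the lines differ in a change.

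The 6 genes, the lists and the tests were chosen with earlier results of these data known. The 5 lists held hyaluronan genes; of each, at most 4 called genes with the largest change were named, beside the 6 genes, *Smad4*, overlapping or neighboring genes and the 3 best correlated genes per member. Lengths are exon unions of GENCODE M21. Alternatives were DESeq2 1.42.0 with and without the line, other scalings and filters, glmTreat, no fold limit, fewer libraries and each library left out. An allele that all groups share is not reported here.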

Additional observations from a re-analysis of the deposited data

Results flagged for a closer look

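The *Smad4* effect on *Has2* differed between the lines by a test of the difference itself, a line-by-*Smad4* term in edgeR, at -3.03 on the log2 scale (B87 minus B73, adjusted p = 0.0176). DESeq2 with the line gave -3.04 (adjusted p = 5.51e-06). The call was lost when any of the 4 TGFβ1 libraries was left out, with values between -5.08 and -2.58 (edgeR adjusted p between 0.258 and 0.795). With 1 culture per line and condition, these p-values do not measure the spread between repeat cultures of a line. Groups of 2 libraries were too small for a search for single outlying samples.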

How the results depend on the processing

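The replicate block (the line), low counts and single libraries set most calls. Of the 6 genes, 1 was called for *Smad4* under TGFβ1, and 0 with no replicate block in edgeR or DESeq2, with at least 10 counts in every library (*Has2* is then not tested) or with glmTreat against 2-fold; for TGFβ1, 4 were called with *Smad4* on, 2 with library totals and 1 with glmTreat, and 1 with *Smad4* off, 0 with no replicate block, at least 10 counts or glmTreat, 2 with no filter or only the 4 libraries, and 3 with no fold limit. The calls of *Has2* between the lines, and of its *Smad4* effect between the lines, were 0 with at least 10 counts or glmTreat. With single libraries left out the numbers ranged from 0 to 1 (*Smad4* under TGFβ1; 0 without Smad4-off TGFβ1 B73), 1 to 4 and 0 to 2 (TGFβ1, *Smad4* on and off; lowest without the B87 SB505124 library of the same state), and 0 to 1 (*Smad4* effect between the lines). In the lowest cases of *Smad4* under TGFβ1 and of TGFβ1 with *Smad4* on and off, 46, 607 and 243 of all genes were called higher. Beside the values given with the results, the block changed no other call of the 6 genes.

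Of the 33 pathway genes, 2 were called for *Smad4* under TGFβ1, against 0 with no replicate block in either tool, at least 10 counts or glmTreat, 1 with DESeq2 and the line or library totals, and 4 with no filter (leaving out libraries, 0 to 2). Under SB505124, and for the difference between treatments, 1 was called with no filter. For TGFβ1 with *Smad4* on, 11 became 6 with no replicate block, 7 with at least 10 counts, 18 with no fold limit and 5 with glmTreat; with *Smad4* off, 6 became 2 with no replicate block, 3 with DESeq2 and no replicate block and 1 with glmTreat (1 to 6 leaving out libraries).

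Over all genes, calls with no replicate block fell to 16 higher and 20 lower for *Smad4* under TGFβ1, 1 and 1 under SB505124, 447 and 588 for TGFβ1 with *Smad4* on and 121 and 47 with *Smad4* off. Library totals shifted the median of all genes by -0.12 for *Smad4* under TGFβ1 and -0.13 for TGFβ1 with *Smad4* on, and moved the first split from 188 higher and 258 lower to 149 and 349.

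Signs turned only for values that were not called. With library totals the *Smad4* value was -0.033 for *Has1* under TGFβ1 and -0.0012 for *Cd44* under SB505124. Leaving out libraries, the *Smad4* values ranged from -0.36 to 0.69 (*Has1*, TGFβ1) and, under SB505124, from -0.71 to 0.92 (*Has1*), -1.19 to 2.76 (*Has2*), -0.056 to 0.92 (*Hyal1*) and -0.12 to 0.23 (*Cd44*). Their difference between treatments ranged from -0.83 to 0.80 (*Has1*), -0.061 to 0.49 (*Has3*) and -0.11 to 0.058 (*Hyal2*), and the line difference of *Cd44* from -0.026 to 0.14. The *Smad4* effect between the lines ranged from -1.66 to 0.029 (*Has1*), -0.51 to 0.14 (*Has3*), -0.31 to 0.87 (*Hyal1*), -0.021 to 0.15 (*Hyal2*) and -0.12 to 0.32 (*Cd44*), and the TGFβ1 effect of *Has2* between them from -4.03 to 0.86. The level of *Has1* was 0.510 CPM per kilobase with the deposited length and 0.236 with exon unions. Causes were not tested beyond what each setting removes. With 1 line alone no test could be made, and *Has1*, *Has3* and the SB505124 values of *Has2* are limited by their counts.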
